A study of Mus musculus with 16 samples.

Results

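The 16 organoid lines of this study were regrouped by 1 gene, Eda2r, a receptor of the TNF receptor family whose transcription p53 switches on. Lines were chosen by its measured level in counts scaled to a fixed library total (CPM, the expected count divided by the line's total and multiplied by 1e6). Below 5 CPM a line was said to have lost p53 output, and at 5 CPM or more to have kept it. By this rule 10 of 16 lines had lost p53 output (all 9 metastasis lines and the primary tumor line T69a) and 6 had kept it (the primary tumor lines T3, T6, T19, T23, T34 and T69b). Both sets are called lost lines and kept lines here. Eda2r ran from 0 to 0.744 CPM in the lost lines, where T69a had the highest value, and from 42.0 to 104 CPM (median 59.1) in the kept lines, so no line lay near the threshold. Because Eda2r chose the groups, it is not a finding and is left out of the genes reported from here on. Counts over all genes include it unless stated otherwise.

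All lines came from 6 KPC mice of strain C57BL6/J with pancreatic ductal adenocarcinoma. The KPC model carries a mutant Trp53 allele that Cre recombinase switches on in the pancreas, so lost and kept lines alike come from a model with mutant Trp53, and the labels do not give the state of the other Trp53 copy. The lines were grown as epithelial organoids in Matrigel, in one medium with EGF, FGF-10, Noggin, R-spondin, gastrin and the TGF-beta receptor inhibitor A83-01, and no treatment, time or age separated the groups. Mice 1 to 5 each gave 1 kept line (T3, T6, T19, T23 and T34, in that order) and 1 or 2 lost lines: M1 from liver, M3P and M6 and M10 from peritoneum, and M15 from diaphragm with M16 from lung. Mouse 6 gave the kept line T69b, the lost primary line T69a, and the lost lines M28 from liver, M29 from diaphragm and M30 from ovary. The stage label and p53 output put 15 of 16 lines on the same side, so stage and p53 output cannot be told apart except at T69a.

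p53 is a transcription factor that cells stabilise after DNA damage or oncogene activity. It binds short paired DNA elements and switches on genes that halt the cell cycle (Cdkn1a), drive cell death (Bax), repair DNA (Polk, Ercc5) and restrain p53 itself (Mdm2, Ccng1). Mutant forms found in tumors commonly fail to bind these elements, and in pancreatic cancer the remaining normal copy of the gene is often lost as the disease advances. The RNA level of p53 targets is therefore commonly read as a sign of working p53, whereas Trp53 RNA itself says little about its activity.

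Total expected counts ran from 24624420 to 49965492 per line. The 3 genes with most counts were mt-Rnr2, a mitochondrial ribosomal RNA, and CT010467.1 and AY036118, which are annotated as a ribosomal RNA and a long noncoding RNA. Together they took 12.5% to 66.8% of the counts in lost lines (median 18.98%) and 12.8% to 40.3% in kept lines (median 15.2%), and the highest shares were in M15 and T6. Expression levels below are CPM scaled by TMM factors, which allow for such shares. Most markers of other cell types were at or near 0. Summed over each list, the 7 acinar, 7 fibroblast, 7 immune, 5 endothelial, 5 lung and 6 islet markers reached at most 1.36 CPM in any kept line and 1.81 CPM in any lost line. The hepatocyte list was carried by Ttr, at 45.3 to 112 CPM in kept and 0.0804 to 6.37 CPM in lost lines, while Alb did not pass 1.31 CPM. Of 5 mesothelial markers, Msln was at 164 to 536 CPM in kept and 308 to 1130 CPM in lost lines, with T69a the highest, and Lrrn4 at 0.151 to 2.26 against 0.214 to 6.29 CPM. Upk3b stayed at or below 0.710 CPM and Wt1 at or below 0.313 CPM, and Calb2 was at 0 in all lines. The part of Ttr, Msln and Lrrn4 in the results was not tested. Keratin 8 ran from 1215 to 1843 CPM in kept and 932 to 2272 CPM in lost lines, so both sets were epithelial. The tables measure bulk RNA, in which fewer cells of a type and less RNA per cell cannot be told apart.

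The first comparison asked whether other p53 targets followed Eda2r. The 3 lists of targets held 48 targets, of which 45 had enough counts to be tested. Of these 45, 20 were separated, meaning that every lost line lay below every kept line and the fitted difference was at least 1 on the log2 scale, and none was separated the other way. Over all 15953 genes, 421 (2.64%, or 420 genes without Eda2r) were separated lower and 309 (1.94%) separated higher, 4.58% in all. The edgeR comparison of lost with kept lines called 32 of the 45 targets lower and 2 higher, where 14.2% of all genes were called lower and 11.8% higher, 26.0% in all. These shares describe the choice of lines, since a target of p53 was used to choose them, and carry no test. The median log2 difference, lost minus kept, was -1.21 over the 45 targets and -0.02 over all genes.

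**Figure D1:**
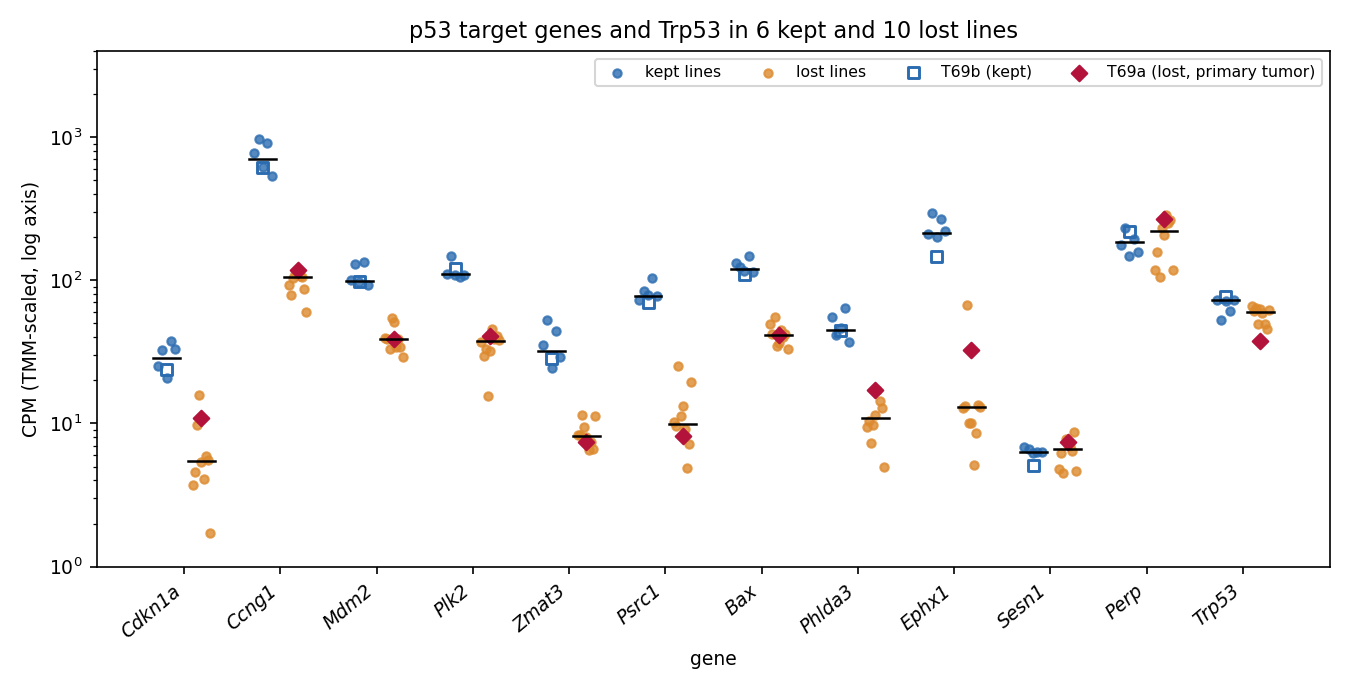
Levels of 11 p53 target genes and of Trp53 (CPM on a log axis) in each organoid line, with kept lines in blue, lost lines in orange, T69b as an open square, T69a as a dark red diamond, and bars at the group medians. T69a lies among the lost lines for Ccng1 (118 CPM) and Mdm2 (38.7 CPM), while Sesn1, Perp and Trp53 overlap between the groups.

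Among the feedback and arrest targets, 9 of 14 tested were separated lower and the median difference was -1.49. Ccng1, cyclin G1, which recruits a phosphatase to Mdm2, was at 537, 699 and 967 CPM (lowest, median, highest) in kept lines and at 60.1, 105 and 120 CPM in lost lines. Every lost line was thus below the lowest kept line, and the kept median was 6.69 times the lost median (log2 difference -2.93, SE 0.18). T69a had 118 CPM of Ccng1, against 615 CPM in T69b from the same mouse and 86.9 to 107 CPM in M28, M29 and M30. Cdkn1a encodes p21, the inhibitor of cyclin-dependent kinases that carries the p53 arrest. It was at 20.7, 28.8 and 37.5 CPM in kept lines and at 1.71, 5.46 and 15.8 CPM in lost lines (log2 difference -2.33, SE 0.35). M15 at 15.8 and T69a at 10.9 CPM were the highest lost lines, and neither reached the lowest kept line. The 10 lowest lines by Ccng1 or by Cdkn1a were therefore the 10 lost lines, which restates the separation of both genes.

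Mdm2, the ubiquitin ligase that degrades p53, kept a sizeable level without p53 output, at 29.04, 38.7 and 54.8 CPM in lost lines against 92.7, 99.2 and 134 CPM in kept lines (log2 difference -1.48, SE 0.14). Trp53inp1, a p53-induced nuclear and autophagy protein, showed the largest difference of the arrest list. Its levels were 78.0, 131 and 199 CPM in kept lines and 3.50, 7.80 and 25.2 CPM in lost lines (log2 difference -3.83, SE 0.44). T69a was the highest lost line and T69b the lowest kept line for this gene. Psrc1, a microtubule protein, was at 70.2 to 103 CPM against 4.87 to 25.3 CPM. Zmat3, a splicing regulator among the p53 targets, was at 24.3 to 52.6 CPM against 6.53 to 11.4 CPM. Plk2, Sesn2 and Gtse1 were the others separated, with log2 differences of -1.79, -1.50 and -1.10. The kinase Plk2 lies on chromosome 13, and its lowest level, 15.6 CPM, was in M15, the line with the lowest chromosome 13 median described below. Whether that chromosome contributed was not tested.

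Several textbook targets did not differ in this way. Sesn1, a sestrin that acts on mTORC1, was at 5.07 to 6.82 CPM in kept and 4.52 to 8.75 CPM in lost lines (log2 difference -0.07, SE 0.18), although its relative Sesn2 was separated. Plk3 had a log2 difference of 0.22 (SE 0.19), also unlike its relative Plk2. Btg2, an antiproliferative gene, overlapped, with T69a at 34.6, M10 at 33.6 and M15 at 29.2 CPM above the lowest kept line, T3, at 28.4 CPM. The arrest list thus held genes with clear differences beside others whose ranges overlapped.

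Of 13 death targets tested, 4 were separated lower (Bax, Bbc3, Phlda3 and Pidd1), with a median difference of -0.95. Bax, which opens the mitochondrial outer membrane, was at 109, 120 and 148 CPM in kept lines and 33.3, 41.6 and 55.3 CPM in lost lines (log2 difference -1.53, SE 0.08). Phlda3, an inhibitor of Akt signalling, was at 37.2 to 64.2 CPM against 4.96 to 17.2 CPM, with T69a the highest lost line. Bbc3, which encodes Puma, was low throughout, at 4.67 to 9.06 CPM and 1.03 to 3.73 CPM. In contrast, Pmaip1 (Noxa), Tnfrsf10b (the TRAIL receptor) and Perp, a membrane protein of desmosomes, overlapped, with log2 differences of 0.28 (SE 0.17), -0.02 (SE 0.16) and -0.20 (SE 0.18). Perp reached 267 CPM in T69a and 219 CPM in T69b.

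The 18 repair and metabolic targets held the widest differences, 7 of them separated lower, with a median of -0.90. Dglucy, a mitochondrial D-glutamate cyclase, was at 38.0, 46.2 and 63.6 CPM in kept lines and at 0.0349, 0.248 and 1.196 CPM in lost lines (log2 difference -7.42, SE 0.57). T69a was the highest lost line at 1.196 CPM, and T69b the lowest kept line at 38.0 CPM. Ephx1, the microsomal epoxide hydrolase, was at 146, 215 and 296 CPM against 5.12, 12.9 and 66.7 CPM (log2 difference -3.73, SE 0.40). Here M10 at 66.7 and T69a at 32.5 CPM were the highest lost lines. The translesion polymerase gene Polk and the nucleotide excision endonuclease gene Ercc5 were also separated lower, with log2 differences of -1.30 and -1.21. Gdf15, Dcxr and Cpt1c completed the separated set. Rrm2b, a ribonucleotide reductase subunit, and Tigar, a fructose bisphosphatase, overlapped, with log2 differences of -0.14 (SE 0.12) and 0.39 (SE 0.28).

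The lines can also be read one by one over the 45 targets. The median log2 difference from the other kept lines lay between -0.19 and 0.21 in the 6 kept lines, with T69b the lowest at -0.19. In the lost lines the median ran from -1.29 in M29 to -0.67 in T69a, so T69a was the lost line nearest to the kept lines by this measure. At least 1 unit lower were 20 of 45 targets in T69a, 20 to 25 in the 9 metastasis lines and at most 1 in any kept line. Within mouse 6 alone, T69a was below T69b for 33 of 45 targets, and M28, M29 and M30 for 36, 35 and 35. These counts by line were not taken over all genes, so how far they exceed the share of all genes is not known. T69b was the lowest kept line for 10 of the 20 separated targets.

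The genes that control p53 showed no such division. None of 17 regulators tested was separated, and their median difference was 0.05. Trp53 RNA was at 52.7, 72.5 and 76.6 CPM in kept lines and 37.8, 59.9 and 65.8 CPM in lost lines. The ranges overlapped (log2 difference -0.25, SE 0.13). By stage label, with T69a counted as a tumor line, Trp53 had a log2 fold change of -0.13 (SE 0.14, edgeR adjusted p = 0.556). T69a had the lowest Trp53 level of all lines, 37.8 CPM, and T69b the highest, 76.6 CPM. The 68 genes within 2 Mb of Trp53 had medians of -0.01 in T69a and 0.01 in T69b against kept lines, and of 0.42 in M15 and 0.21 in M16. Mdm4, the partner of Mdm2, was at 55.7 to 90.4 CPM in kept and 46.5 to 72.9 CPM in lost lines. Cdkn2a, whose alternative product p19Arf blocks Mdm2, was at 36.6 to 52.3 CPM against 41.9 to 90.5 CPM.

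Transcripts of Cdkn1a differed by start site. The gene has 2 main starts on chromosome 17, an upstream start at position 29090979 used by transcript Cdkn1a-202 and a downstream start at 29093769 used by Cdkn1a-201, both on the plus strand. Cdkn1a-202 was chosen after its values were seen. It held 10.1% to 16% of Cdkn1a transcripts by the deposited isoform percent in every kept line, T69b included at 10.1%. In 9 of 10 lost lines, T69a among them, it had 0 counts. The exception was M15, with 11.4% but only 6.66 expected counts. Over the 6 kept lines the transcript had 512.52 expected counts. As a share of the gene's expected counts, it was 4.70% to 7.72% in kept lines, and 0 of 555 counts in T69a allows a share of up to 0.541%. For the other lost lines at 0 the limit that a count of 0 allows (3 counts) ran from 0.726% to 4.38%, the last in M3P with 68.5 Cdkn1a counts. These limits cover counting error only, and isoform counts are estimates. Cdkn1a-201 was also lower, at 14.26 to 24.96 TPM in kept lines and 1.04 to 7.47 TPM in lost lines. Its share of the gene's transcripts was 79.6% to 86.0% in kept lines (median 82.7%) and 79.5% to 98.3% in lost lines (median 96.1%). Shares of Mdm2-201 and Trp53-203 overlapped between the groups.

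**Figure D2:**
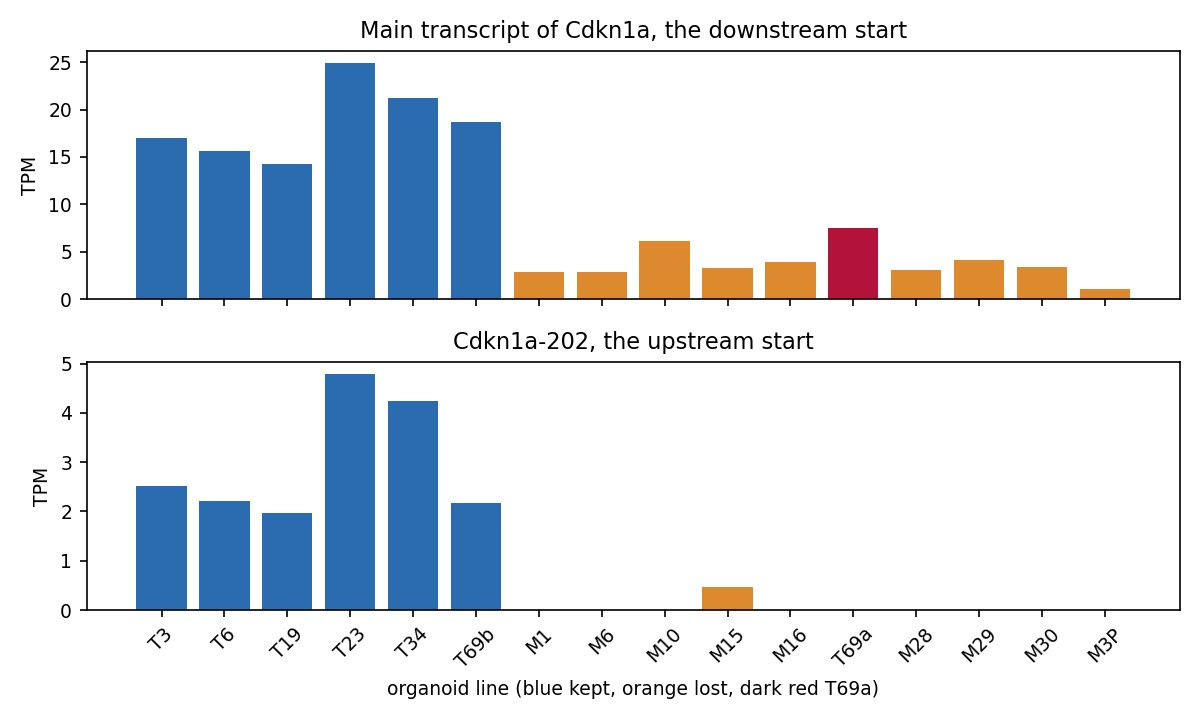
TPM of Cdkn1a-201 (upper panel, downstream start) and Cdkn1a-202 (lower panel, upstream start) in each of 16 organoid lines, with kept lines in blue, lost lines in orange and T69a in dark red; each panel has its own axis from 0. The lower panel is empty in 9 of 10 lost lines, and M15 reaches 0.46 TPM.

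The upstream start of Cdkn1a is shown because its transcript had 0 counts in 9 of 10 lost lines. Most Cdkn1a transcripts came from the downstream start, which was lower in lost lines too and is not shown. The promoters of Ccng1 and Bax are shown as targets whose levels were separated. Each run covers the 250 bases before the start, 5′ to 3′ on the gene's strand, from RefSeq (GRCm38.p6). Capitals mark matches to the 10-base p53 half-site consensus, searched on both strands. The Cdkn1a run is chr17:29090729-29090978 on the plus strand, with matches GGACTAGCTT at -73 and GAACATGTCT at -51 from the start, close enough (a spacer of at most 13 bases) to count as a full site. The Ccng1 run is chr11:40755287-40755536 on the minus strand, with GGGCAAGCCT at -185. The Bax run is chr7:45466899-45467148 on the minus strand, with AGGCAAGCTT.
Cdkn1a: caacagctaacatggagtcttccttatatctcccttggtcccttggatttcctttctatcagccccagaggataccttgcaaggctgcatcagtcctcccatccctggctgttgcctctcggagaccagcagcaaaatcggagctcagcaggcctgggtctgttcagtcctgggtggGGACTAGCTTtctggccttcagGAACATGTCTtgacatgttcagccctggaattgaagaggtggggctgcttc
Ccng1: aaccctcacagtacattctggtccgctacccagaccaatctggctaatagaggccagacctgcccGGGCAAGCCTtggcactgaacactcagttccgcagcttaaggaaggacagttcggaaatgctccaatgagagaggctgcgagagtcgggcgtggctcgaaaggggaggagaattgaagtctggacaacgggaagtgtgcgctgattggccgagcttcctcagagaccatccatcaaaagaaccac
Bax: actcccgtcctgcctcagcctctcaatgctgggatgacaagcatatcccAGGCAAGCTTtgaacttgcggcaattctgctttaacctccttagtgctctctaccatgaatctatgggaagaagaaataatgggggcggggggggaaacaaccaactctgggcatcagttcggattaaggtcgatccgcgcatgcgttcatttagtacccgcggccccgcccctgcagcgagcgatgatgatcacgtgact

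A half-site match was found in 12 of 49 promoters (24.5%) of the targets, counted from 250 bases before to 50 bases after each start, where RefSeq entries were matched for 36 of 45 genes. Among all 13654 promoters of tested genes 6.86% had one, and 5 (0.0366%) had a full site, of which that of Cdkn1a was 1. Separated targets had a match in 6 of 25 promoters (24.0%) and the other targets in 6 of 24 (25%). A match is a description of the letters only, and many p53 sites lie outside this window.

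Gene groups beyond p53 were described in the same way, and the stage labels, which use no gene's level, supplied the tests. The edgeR quasi-likelihood comparison of 9 metastasis with 7 tumor lines, in which T69a counts as a tumor line, called 1026 genes (6.59%) higher and 1545 (9.92%) lower of 15573. Among pancreatic duct and progenitor genes, 8 of 18 were separated lower in lost lines and none higher, with a median log2 difference of -1.47, against 2.64% and 1.94% of all genes. By stage 9 of 17 tested were called lower and 2 higher. Onecut1, a transcription factor of duct development, was at 9.03, 17.4 and 24.4 CPM in kept lines and at 0, 0.0363 and 0.980 CPM in lost lines. T69a had 0.980 CPM of it, above the 9 metastasis lines and below all kept lines, and by stage it fell by 8.41 on the log2 scale (SE 0.67, edgeR adjusted p = 6.08e-05). Nr5a2, a nuclear receptor of the exocrine pancreas, was at 11.3 to 31.7 CPM against 0 to 1.96 CPM (stage log2 fold change -6.12, SE 0.83, edgeR adjusted p = 0.00191).

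Bicc1, an RNA-binding protein of ducts and cysts, was at 151, 289 and 409 CPM in kept lines and 11.2, 25.3 and 59.0 CPM in lost lines, where T69a had 21.8 CPM. Hhex, a foregut homeobox gene, was at 56.6, 74.2 and 93.3 CPM against 2.61, 7.59 and 15.8 CPM, where T69a had 8.61 CPM. By stage both fell (edgeR adjusted p = 0.00385 and 0.00468). Not all members of the list were lower. Sox9 was at 11.4 to 18.2 CPM in kept and 10.5 to 32.3 CPM in lost lines, a log2 difference of 0.06 (SE 0.16). Cftr, the chloride channel of duct fluid secretion, went the other way, at 2.04, 3.91 and 15.4 CPM in kept and 12.4, 70.5 and 124 CPM in lost lines. T69b had the highest Cftr level of the kept lines, 15.4 CPM, and T69a had 67.7 CPM. Sox9 and Cftr were chosen after their values were seen.

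**Figure D3:**
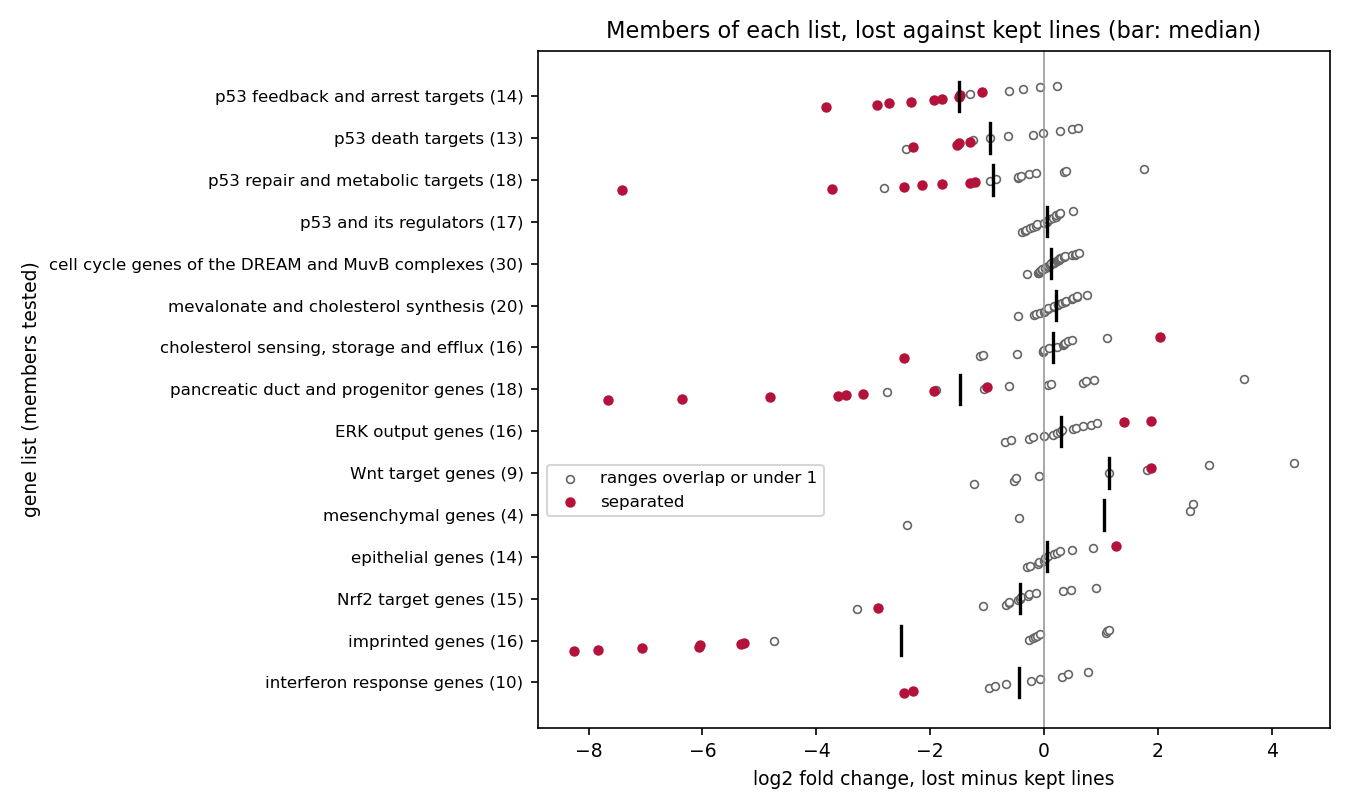
Fitted log2 fold changes, lost minus kept lines, of the tested members of each gene list (1 point per gene, black bar at the list median, number of members tested in brackets), with separated genes filled. Medians lie at -1.49 for feedback and arrest targets and 0.05 for p53 and its regulators.

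Soat1, which esterifies cholesterol for storage, was the 1 gene of cholesterol sensing, storage and efflux separated higher. It was at 30.1, 43.5 and 69.8 CPM in kept lines and 141, 189 and 290 CPM in lost lines, so the lost median was 4.34 times the kept median (log2 difference 2.04, SE 0.14). T69a had 186 CPM, close to the lost median, and T69b had 69.8 CPM, the highest kept value. With T69a counted as a tumor line, Soat1 rose by 1.72 on the log2 scale (SE 0.28, edgeR adjusted p = 0.00443). Soat1 lies on chromosome 1, whose median over genes stayed between -0.10 and 0.25 on the log2 scale in all lost lines. A whole-chromosome median does not show a shift near Soat1 alone, and whether its region contributed was not tested. Of the other 15 genes of that list, Mylip, a ligase that degrades the LDL receptor, was separated lower, at 1.54 to 3.03 CPM against 0.0475 to 1.12 CPM. None of the 20 mevalonate and cholesterol synthesis genes was separated, which asks for a difference of at least 1, and their median difference was 0.21. The fit of lost against kept lines called 7 of the 20 higher and 1 lower, where 11.8% and 14.2% of all genes were. Acat2 and Sqle, acetyl-CoA thiolase and squalene epoxidase, were at 173 to 272 against 267 to 391 CPM and 170 to 227 against 196 to 369 CPM. By stage Mvk, Sqle and Acat2 were the 3 of the 20 called higher, where 6.59% of all genes were, and none was called lower. These calls ended in 6, 7 and 14 of 26 alternative settings, in that order.

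Cell cycle genes gave no clear division although the arrest gene Cdkn1a did. None of 30 genes bound by the DREAM and MuvB complexes, through which p21 represses the cell cycle, was separated, and their median difference was 0.13. Mki67 was at 388 to 617 CPM in kept and 318 to 696 CPM in lost lines. Cenpa, a centromeric histone, was at 48.3 to 77.3 against 74.0 to 105 CPM, where T69b was the highest kept line (77.3 CPM). By stage 5 of 30 were called higher and none lower, where 6.59% of all genes were called higher. Of the 4 with the lowest p, the calls of Foxm1, Mybl2, Nek2 and Cenpa ended in 10, 9, 7 and 1 of 26 alternative settings. ERK output genes had 2 of 16 separated higher, the transcription factor gene Fosl1 at 1.04 to 4.59 against 4.72 to 12.2 CPM and the feedback inhibitor gene Spry4 at 5.95 to 11.9 against 14.97 to 43.8 CPM. By stage 4 of the 16 were called higher and 2 lower. Spry2, a feedback inhibitor gene, was 1 of those lower, and fell by 0.63 on the log2 scale (SE 0.13, edgeR adjusted p = 0.0103), a call that ended without the libraries M15 and T6. Among Wnt targets, 1 of 9 was separated, Tcf7, at 1.67 to 5.74 against 6.78 to 16.6 CPM, and Axin2 rose by stage by 1.65 (SE 0.34, edgeR adjusted p = 0.00964). By stage 3 of the 9 were called higher and none lower, where 6.59% and 9.92% of all genes were.

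Of 10 interferon response genes tested, Ifit2 and Tap1 were separated lower, where 2.64% of all genes were separated lower and 1.94% higher. By stage 4 of 9 tested were called lower and none higher, where 9.92% and 6.59% of all genes were. Tap1, the peptide transporter of antigen presentation, was at 5.76 to 8.67 CPM in kept and 0.454 to 3.99 CPM in lost lines, with T69a at 1.29 CPM. Imprinted genes had 7 of 16 tested separated lower, among them Peg3 at 45.2 to 276 against 0.201 to 24.8 CPM and Grb10 at 1.63 to 55.4 against 0 to 1.51 CPM. Meg3, Rian, Mirg and Dio3os, also separated lower, share 1 imprinted cluster on chromosome 12, so they are not independent cases. Over the imprinted list none was separated higher, and the median difference was -2.51. By stage 6 of 13 tested were called lower and 2 higher, where 9.92% and 6.59% of all genes were. The median of the imprinted genes by stage was -0.19 over these 13 members, whereas -2.51 was over 16. A member with counts in the 6 kept lines alone could be tested in 1 grouping and not in the other. The 2 medians thus cover unlike members, and the part of this in their gap was not tested. Gsta3, a glutathione transferase, was the 1 of 15 Nrf2 targets separated, at 174 to 480 against 10.7 to 151 CPM. The median difference of the 15 was -0.42. By stage 6 of the 15 were called lower and none higher, where 9.92% and 6.59% of all genes were. Epithelial genes had 1 of 14 separated, Ovol1, with a median difference of 0.05, and Cdh1 was at 304 to 425 CPM in kept and 225 to 473 CPM in lost lines. Only 4 of 10 mesenchymal genes had enough counts to be tested. None was separated, although their median difference was 1.06. By stage 2 of the 4 were called higher and 1 lower, where 6.59% and 9.92% of all genes were.

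Over all genes tested, the widest separated differences lay on the low side. A gene could have enough counts to be tested through the 6 kept lines alone. Of the genes named next, Olfr1318, Zcchc3, Mgmt and Tmem229a had too few counts to be tested by stage. The part of this filter in the low side was not tested. The naming rule asked for a mean of at least 1 CPM in the higher group alone, so a gene near 0 in the other group could enter only with a wide difference. By this rule, the 10 lowest log2 differences were those of Olfr1318, Zcchc3, Ambp, Ano3, Grb10, Mgmt, Rian, Onecut1, Foxj1 and Tmem229a, from -8.71 to -7.44, and the highest included those of Ptpn22, Ifi211, Stra6, Prrx2, Nav3, Bpifb4, Lgr6, Klhl1 and Gpa33, from 6.50 to 4.94. Mgmt, which removes alkyl groups from guanine in DNA, was at 3.35, 5.46 and 7.19 CPM in kept lines and at 0 to 0.0980 CPM in lost lines. Olfr1318, an olfactory receptor gene, had 0.694 to 2.72 CPM in kept lines and no count in any lost line. Foxj1, the master factor of motile cilia, was at 12.4 to 65.0 against 0.0475 to 2.04 CPM. On the high side, Gpa33, an intestinal epithelial antigen, was at 0.155 to 6.75 CPM in kept and 12.97 to 86.3 CPM in lost lines, and T69b was its highest kept line. Stra6, a retinol transporter, was at 0 to 0.708 against 1.25 to 54.1 CPM. For 13 of the 420 genes separated lower, every lost line was under 0.1 of the lowest kept line, and the same gap held the other way for 0 of the 309 separated higher. On TPM, which does not allow for the unequal ribosomal RNA shares, 97 genes were separated higher and 461 lower.

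The comparison turns on T69a, the line whose stage label and p53 output disagree, so its whole profile was placed between the stages without using it to choose genes. A stage comparison without T69a gave 1866 genes called with a log2 fold change of at least 1 in size. For each gene the place of T69a was 0 at the mean of the other 6 tumor lines and 1 at the mean of the 9 metastasis lines. The median place of T69a was 0.98, with quartiles of 0.67 and 1.27, and 83.9% of the genes were nearer to the metastasis mean. It lay inside the metastasis range and outside the tumor range for 71.9% of the genes, and the reverse held for 6.43%. Genes higher in metastases gave a median place of 1.06 and genes lower gave 0.93. When the p53 target lists were left out the median place was 0.98, and with only lines of mouse 6 in both means it was 0.92. M28, M29 and M30, of the same mouse as T69a, were among the 9 metastasis lines that chose the genes and set the metastasis mean. No placement left these lines out, so the part of likeness to lines of the same mouse was not tested.

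The other tumor lines, left out in the same way, lay near 0. Median places were -0.11 for T3, -0.26 for T6, -0.31 for T19, -0.05 for T23 and -0.34 for T34. T69b lay at 0.26 (quartiles 0.07 and 0.52), above the other kept lines, with 26.4% of 1139 genes nearer to the metastasis mean. Different gene sets enter for each line, since each fit leaves out another line, and the fits for lines other than T69a hold T69a among the tumor lines. T69b was also the kept line nearest to the lost lines in 56.3% of the genes separated lower and 58.9% of those separated higher. Without T69b 1143 genes were separated in place of 730. Among genes separated lower, M10 was the lost line nearest to the kept lines in 80 of 421 and T69a in 64. Eda2r, which chose the groups, is 1 of the 421 and of the 64. Among the 309 genes separated higher, M1 was nearest in 52, M3P in 45, M10 in 43 and T69a in 34.

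**Figure D4:**
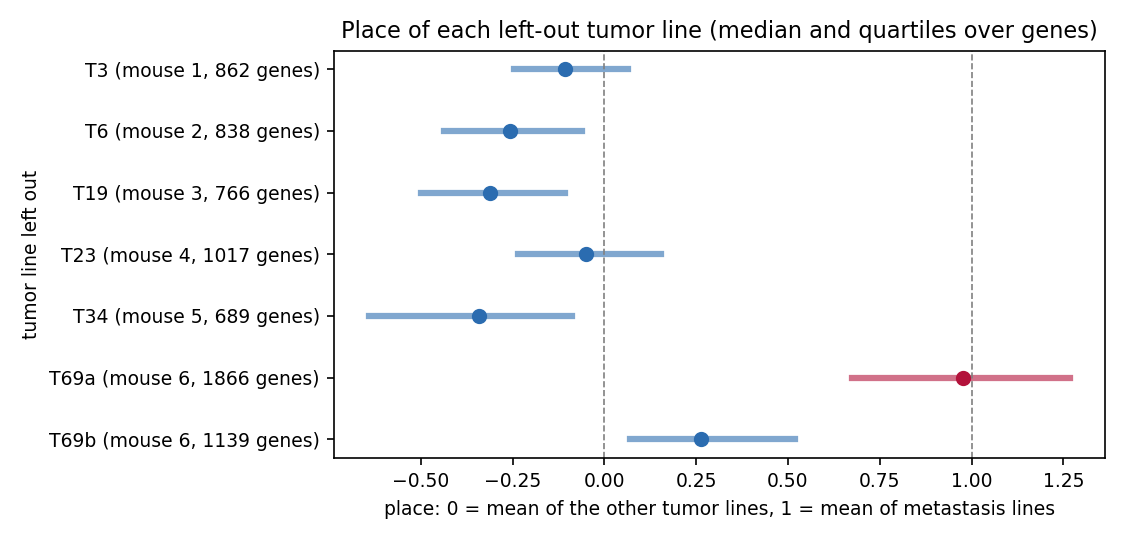
Place of each primary tumor line when left out of the fit (point at the median over genes, bar over the quartiles), where 0 is the mean of the other tumor lines and 1 the mean of the 9 metastasis lines. T69a lies at 0.98, T69b at 0.26 and the other 5 tumor lines between -0.34 and -0.05.

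Some genes of T69a lay in the tumor range. Among genes that differed by at least 2 on the log2 scale in the stage fit without T69a, 52 had T69a inside the tumor range and outside the metastasis range. The 6 largest by the naming rule were Xlr3a, Inhbb, Lama4, Trf, Lrg1 and Adh1. Trf, transferrin, was at 43.6 CPM in T69a and 32.4 CPM in T69b, within kept levels of 32.4 to 1067 CPM, and M15, at 36.8 CPM, also lay within them. The other 8 lost lines were at or below 6.55 CPM. Inhbb, the activin beta B chain, was at 2.35 CPM in T69a and 0.421 CPM in T69b. Adh1, an alcohol dehydrogenase that acts on retinol, was at 3.16 CPM in T69a and 1.82 CPM in T69b. Values of Xlr3a are uncertain, since it has close copies on the X chromosome between which reads are hard to assign. No gene of T69a with at least 10 CPM stood 4 times above or below all other 15 lines.

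A measure the rule did not use is the evenness of expression over chromosomes, taken over 9808 genes. For each line and each of 19 autosomes, the median log2 difference from the kept lines (from the other kept lines, for a kept line) was taken. The SD of the 19 medians was 0.0153 to 0.0493 in kept lines (median 0.0203, n = 6) and 0.123 to 0.294 in lost lines (median 0.247, n = 10), with no overlap. T69a had 0.271, and T69b had 0.0493, the highest of the kept lines. No autosome of any kept line lay beyond 0.25 in size, whereas 1 to 9 autosomes did in each lost line. The kept lines are their own reference here, and a regional shift shared by kept lines would not be seen. Shifts in expression were measured, and DNA copies were not.

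T69a shared its pattern with the metastases of the same mouse. Chromosome 19 had a median of 0.76 in T69a and of 0.76, 0.80 and 0.82 in M28, M29 and M30, and chromosome 12 had 0.45, 0.45, 0.42 and 0.44. Across the 19 autosomes, the profile of T69a had a correlation of 0.98 with M29, 0.97 with M30 and 0.80 with M28, and of 0.06 to 0.28 with the lost lines of other mice. These values describe 19 points per pair that share a reference and carry no test. T69b had a median of 0.17 on chromosome 19, above the other kept lines, which lay between -0.0822 and -0.00359, and its profile correlated at 0.79 with that of T69a. The 2 lost lines of mouse 5, M15 and M16, shared a low chromosome 13, at -0.76 and -0.45. Chromosome 13 was the 1 autosome that was low in every lost line by more than in any kept line, from -0.76 to -0.08 against -0.06 to 0.04.

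**Figure D5:**
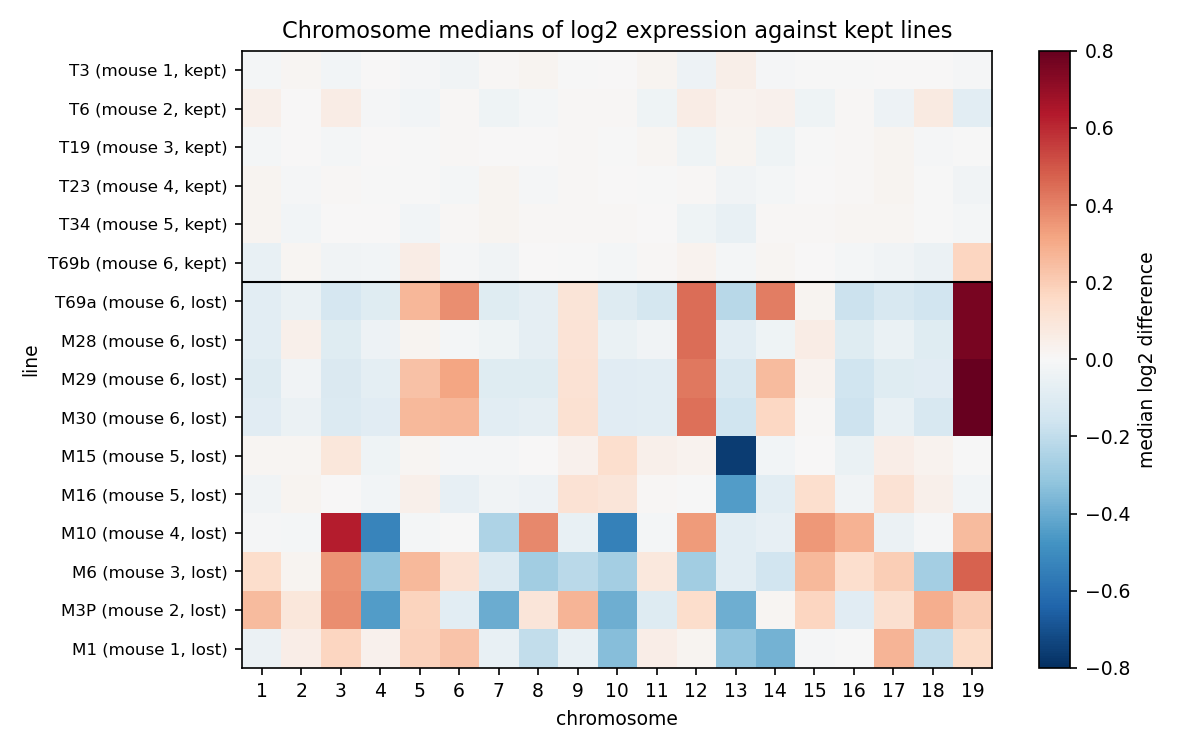
Heat map of the median log2 expression difference from kept lines for each autosome (columns) and line (rows, with mouse and p53 output), blue below and red above 0; the line divides kept from lost lines. Kept lines are near 0 throughout, and T69a, M28, M29 and M30 share high chromosomes 12 and 19.

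Counts of separated genes also differed by chromosome. Chromosome 13 had 4.69% of its 661 tested genes separated lower and 0.756% higher, and chromosome 19 had 1.29% of 543 lower and 3.13% higher, where all genes had 2.64% and 1.94%. Chromosome 4, with 4.42% of 950 lower, was close to chromosome 13, and chromosome 3, with 3.50% of 856 higher, was above chromosome 19. The part of the shifts in single genes was not tested. For Cdkn1a on chromosome 17 and Ccng1 on chromosome 11 the lost lines had chromosome medians of -0.13 to 0.27 and -0.14 to 0.08, against gene differences of -2.33 and -2.93.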

How the data were processed

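The 16 libraries hold RNA of organoid lines from 6 mice. Per the submitters' processing notes, FastQC 0.11.8, STAR 2.6.0c and RSEM 1.3.1 were used with genome build GRCm38.p6. The authors deposited, per line, gene tables with expected counts (estimates that need not be whole) and TPM, and isoform tables with expected counts, TPM and isoform percent, per the file headers. The strand setting of the counting was not given in the sources used here, and RSEM shares reads among near-identical genes. Of 55487 gene identifiers, 55394 were matched to GENCODE M21, and the other 93 held at most 0.00356% of any line's counts.

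Groups came from Eda2r CPM (expected count divided by the line total, times 1e6, threshold 5). The members, gene lists and tests were chosen with earlier results of these data known. Expected counts were rounded and fitted with edgeR 4.0.16 (quasi-likelihood test, TMM factors, filterByExpr, a term per mouse) in R 4.3.3, for lost against kept lines as a description and for metastasis against tumor lines as a test, with Benjamini-Hochberg adjustment over all genes tested and a threshold of 0.05. Levels are CPM on TMM-scaled totals, and place and chromosome values are on log2(CPM + 0.5). Chromosome medians used genes with a mean of at least 5 CPM. Lines of 1 mouse are not independent animals, so p-values measure in part the spread between lines. Precision was limited by total counts of 24624420 to 49965492, and by a TMM-scaled total of 7768432 in M15.

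Mouse labels pair the lines. Deviations from group means correlated at 0.261 on average over 17 pairs of lines of the same mouse and at -0.118 over 103 pairs of different mice, with -0.02 to 0.33 over the 10 pairs of a lost and a kept line of 1 mouse.

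Genes named were taken from the tested p53 targets and regulators (a part of them, chosen with values seen, and the rest by counts), the 10 highest and 10 lowest log2 differences among separated genes (mean of at least 1 CPM in the higher group, named genes only, without Eda2r), up to 4 members of every other list by the stage p, Soat1, and genes of T69a in the tumor range. Of the genes this rule picks, 1 is not reported here. Others were chosen after their values were seen. Alternatives covered the mouse term, size factors, count filters, DESeq2 1.42.0, limma 3.58.1 on log2(TPM + 1) and after voom, and lines left out. The counting fit was tested on simulated data. Promoter sequences came from RefSeq.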

Additional observations from a re-analysis of the deposited data

Results flagged for a closer look

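Levels of named genes in each group, and the share of the 3 genes with most counts, were examined for a single line far from the rest of its group. Of 169 groups examined, 16 had such a line, and for normally distributed values chance gives about 1 in 20, a rate not measured here for these levels. No explanation was tested for any of them.

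T69a was the highest of the lost lines, far above the next, for 5 genes that were near 0 in the 9 metastasis lines. These were Zcchc3 at 0.0588 CPM, Grb10 at 1.51 CPM, Mgmt at 0.0980 CPM, the duct factor gene Onecut1 at 0.980 CPM and the cilia factor gene Foxj1 at 2.04 CPM. Over all lost lines Zcchc3 had 4 counts and Mgmt 7, so for both the gap rests on very few counts. Among kept lines, T69b stood apart with the lowest Sesn1 level (5.07 CPM) and the highest level of Nav3, a neuron navigator gene (1.78 CPM).

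M15 was lowest for Plk2 (15.6 CPM) and highest for Pmaip1 (47.1 CPM) and Ak1 (1.29 CPM) among lost lines. It also had the largest share of counts in the 3 genes with most counts, 66.8%. T6 had the largest such share of the kept lines, 40.3%, the highest Plk2 level (148 CPM) and the lowest Rpl11 level (378 CPM). The last 2 were Aen, a p53-induced nuclease gene, lowest in T34 at 49.96 CPM, and Mdm4, highest among lost lines in M3P at 72.9 CPM.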

How the results depend on the processing

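The members of both groups stayed the same at Eda2r thresholds of 2 and 10 CPM, on TMM-scaled CPM and on TPM. This follows from the wide gap in Eda2r between the groups and is not a separate result. The 20 separated p53 targets remained 20 in number without the mouse term, with RLE factors and without T69a or T69b, and were 21 without M15 and T6 (the last 2 settings were added after seeing the data). The median place of T69a ran from 0.92 to 0.99 over 6 alternatives. Calls between lost and kept lines numbered 4155, 4205 with no replicate block (no mouse term), 3028 to 4593 with 1 line left out, and 1936 (67.4% lower) with limma on log2(TPM + 1), which moved the median of all genes to -0.12. The stage test was less stable. It gave 2571 calls, 2219 with no replicate block, 3968 with DESeq2, 1184 with limma on log2(TPM + 1) (72.2% lower, against 60.1%), and 794 without M15 and T6. With 1 line left out it gave 1133 (without T34) to 3910 (without T69a), and leaving out M1, M6, M10, M3P, T3, T6 or T19 gave 1268 to 1669. Separated genes numbered 433 at a log2 difference of at least 2, 1102 with no minimum, and 726 to 1143 (without T69b) with 1 line left out. The shift in the share of Cdkn1a-201 was 13.4 percentage points by isoform percent and 6.83 by expected counts. Of 85 named genes past the stage threshold, 46 stayed past it in every alternative, and no called gene changed sign. Low counts limit Cdkn1a-202 and genes under 1 CPM, in M15 most of all.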
